A study of Mus musculus with 5 samples.

Results

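The genes described here are 43 genes of mitosis and the mitotic spindle, followed across 5 RNA libraries. All 5 came from B16F10, a melanoma line of mouse skin whose cells make pigment. The genes were taken by symbol from a list, and all 43 were found among the 54100 Ensembl genes of the deposited table. This list and those set beside it were chosen with earlier results of these data known, so counts over their genes are descriptions. Each of the 5 groups had 1 library, pooled from 3 repeats. The wild-type groups were conventional three-dimensional culture, called conventional 3D here, dynamic suspension culture, and shControl. The other groups carried the labels HIF-1α knockdown and HIF-1α overexpression, and no group was given a treatment. For all 5 samples the labels give 1 growth protocol without serum, shaken at 60 to 80 rpm over 7 to 10 days, so the titles alone tell the cultures apart. The labels name no vector or hairpin and do not say whether a line was 1 clone.

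Mitosis is driven by cyclin-dependent kinase 1 with cyclins A and B, and by the Polo and Aurora kinases. Chromosomes attach to spindle microtubules through kinetochores, a checkpoint holds the cell until every chromosome is attached, and the anaphase-promoting complex then has cyclin B and securin destroyed so that the chromatids part and the cell divides. Most genes of these proteins are switched on together late in the cell cycle. A DNA element called CHR, often close to a CCAAT box, carries this control. At the CHR the MuvB core sits with pocket proteins in resting cells, where it represses, and with B-Myb and FoxM1 in cycling cells, where it activates.

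The promoters of the 43 genes are shown first, because the levels of these genes varied together across the libraries. RefSeq promoters on GRCm38.p6, from 250 bases before to 50 bases after a start site, were matched for 34 of the 43 genes. Those not matched were Aurkb, Bora, Ccna2, Cdc25c, Foxm1, Incenp, Kif20a, Pbk and Tpx2. The CHR was searched as TTTGAA or TTCGAA on both strands, and the CCAAT box as CCAAT on both strands. Overlapping matches were each counted. CHR letters starting within 40 bases of a start site stood in 24 of the 34 genes, or 70.6%, against 4.31% of 17492 protein-coding genes and 9.68% of 31 DNA replication genes. CCAAT letters stood in 26 of the 34, or 76.5%, against 42.3% of protein-coding genes. Both stood together in 61.8% of the matched genes and in 1.89% of protein-coding genes. In 17 of the 24 genes the CHR letters near the start lay only after it, as in Ccnb2, so they are not in the stretches shown. Each stretch holds the 100 bases before the start on the gene's strand, with CHR and CCAAT letters in capitals. The 6 genes were chosen to show both arrangements, after the motif positions were seen.
Cdc20: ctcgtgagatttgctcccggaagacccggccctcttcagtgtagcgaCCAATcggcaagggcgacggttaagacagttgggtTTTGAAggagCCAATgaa
Cdk1: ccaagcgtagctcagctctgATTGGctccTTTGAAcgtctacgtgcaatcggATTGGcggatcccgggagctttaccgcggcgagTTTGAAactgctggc
Top2a: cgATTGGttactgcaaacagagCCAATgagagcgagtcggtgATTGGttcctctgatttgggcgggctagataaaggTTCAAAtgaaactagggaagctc
Ube2c: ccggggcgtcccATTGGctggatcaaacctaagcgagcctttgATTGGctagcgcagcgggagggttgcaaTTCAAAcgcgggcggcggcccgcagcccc
Espl1: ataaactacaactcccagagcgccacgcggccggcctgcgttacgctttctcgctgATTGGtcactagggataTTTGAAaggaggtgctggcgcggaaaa
Ccnb2: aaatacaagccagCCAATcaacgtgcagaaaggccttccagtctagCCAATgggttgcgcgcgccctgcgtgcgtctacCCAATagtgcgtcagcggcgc

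These lie at chr4:118437344-118437443 (minus strand), chr10:69352913-69353012 (minus), chr11:99024190-99024289 (minus), chr2:164769829-164769928 (plus), chr15:102296193-102296292 (plus) and chr9:70421555-70421654 (minus), in the order listed. In Ccnb2 the CCAAT letters recur at an even spacing. Among the 34 matched genes, 9 held a pair of CCAAT letters 31 to 34 bases apart, or 26.5%, against 1.69% of protein-coding genes, a spacing chosen after the sequences were seen. A match of letters is a description of the sequence and no measurement of binding.

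The deposited values summed to between 59493240 and 61267892 in the 3 wild-type columns, and to 14803426 (labelled knockdown) and 15393189 (labelled overexpression) in the others. The former were taken as estimated counts and the latter as plain counts, from the pattern of low values, since no counting program is named. Genes at the value 4 outnumbered those at 3 in conventional 3D (796 against 412), dynamic suspension (926 against 425) and shControl (811 against 482). They did not in the library labelled knockdown (422 against 580) or the library labelled overexpression (487 against 620). Values across these kinds of column may not share a unit, so every comparison that crosses them cannot be told apart from the kind of column. Levels are given as CPM, counts relative to library size, with sizes adjusted by the trimmed mean of M-values (TMM). Hif1a, the targeted gene, was 61.3 CPM in shControl, the lowest of the 5 libraries, and 95.1 CPM in the library labelled knockdown, against that label. It was 384 CPM in the library labelled overexpression, beside 542 CPM in conventional 3D and 391 CPM in dynamic suspension. The library labelled overexpression was thus not above those cultures. The column of the library labelled knockdown is headed with the line name B16F10 alone. Which label may be wrong cannot be told from these values, so both libraries are called by their labels throughout. All 10 melanocyte markers, Mitf, Sox10, Tyr and Pmel among them, exceeded 1 CPM in every library, with sums from 20590 to 36300 CPM. Of the immune markers, Cd68, a macrophage gene also expressed in other cells, ran from 0.787 CPM in the library labelled knockdown to 13.2 CPM in dynamic suspension, while Cd3e and Itgam had 0 counts in all 5 libraries, where a count of 0 allows up to 0.049 to 0.197 CPM, and the 6 epithelial markers summed to under 1 CPM in each. With 1 library a group, no difference has a replicate check, no test was run, and intervals are 95% counting intervals only. Those of the estimated counts may be too narrow.

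The mitotic genes were lowest in dynamic suspension, followed by the library labelled overexpression and then conventional 3D. They were highest in shControl and the library labelled knockdown. Summed over the 43 genes, they took 0.518% of all values in shControl, 0.432% in the library labelled knockdown, 0.151% in conventional 3D, 0.086% in the library labelled overexpression and 0.036% in dynamic suspension. In bulk RNA, fewer dividing cells and less of each transcript per cell cannot be told apart. Dynamic suspension was the lowest library for 42 of the 43 genes, and the highest was shControl for 30 and the library labelled knockdown for 13. The exception at the low end was Kif20a, a kinesin of the central spindle, at 5.18 CPM in the library labelled overexpression (95% Poisson interval 4.15 to 6.39) and 6.29 CPM in dynamic suspension (5.67 to 6.96), where the intervals overlap. The full order shControl, labelled knockdown, conventional 3D, labelled overexpression, dynamic suspension held for 29 genes, and 12 more differed from it only in having the library labelled knockdown above shControl.

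**Figure D1:**
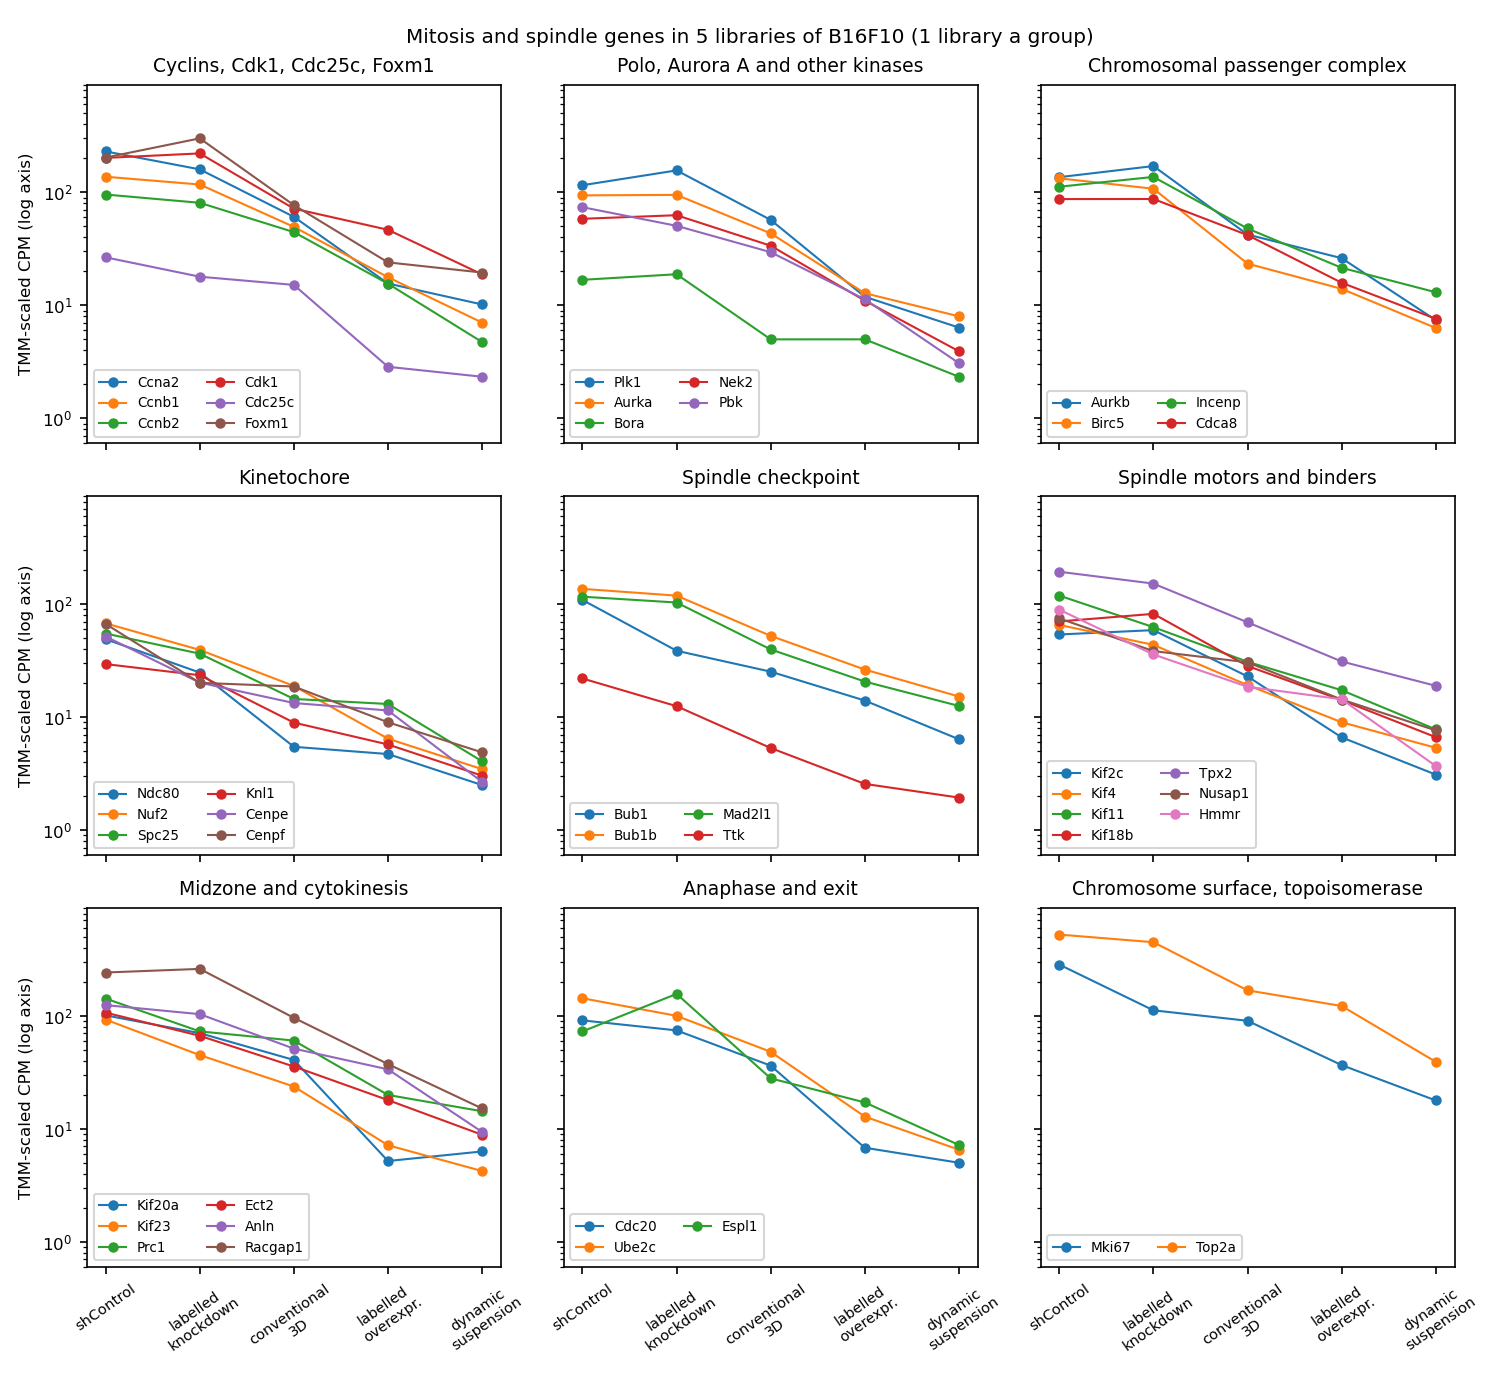
Levels of the 43 genes (y, TMM-scaled CPM, log axis) in the 5 libraries (x), in 9 panels by role, with 1 point a library and lines that only join the points of a gene. The lines of 29 genes fall at each step from shControl to dynamic suspension, and 13 genes, Espl1 and Foxm1 among them, have their highest level in the library labelled knockdown.

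The highest level divided by the lowest ran from 8.07-fold for Bora, a cofactor by which Aurora A activates Plk1, to 24.6-fold for Plk1 itself. Per kilobase of exon, the scale on which genes can be compared, Ccnb2, Top2a and Ccna2 led in shControl at 62.5, 58.0 and 56.4 CPM per kb. The order of the genes was not fixed. Plk1, Aurkb and Ccnb2 led in the library labelled knockdown, whereas Top2a, Tpx2 and Cdk1 led in dynamic suspension. The leaders depend on the gene length used. With the longest transcript as length, Top2a, Ccna2 and Aurkb led in shControl, at 100, 77.6 and 69.9 CPM per kb. Aurkb, Top2a and Plk1 then led in the library labelled knockdown, at 87.6, 85.6 and 71.1 CPM per kb. Those of dynamic suspension stayed the same. Top2a, which untangles DNA strands, ran from 39.1 CPM in dynamic suspension to 522 CPM in shControl. The smallest deposited value behind any level in dynamic suspension was 117 estimated counts, for the checkpoint kinase gene Ttk at 1.94 CPM, and in the library labelled overexpression 43 counts, also for Ttk.

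The first question, from the study design, is how the 2 ways of enriching stem-like cells differ. All 43 genes were lower in dynamic suspension than in conventional 3D beyond 2-fold, and 0 were higher. Over all 12875 genes tested, 7.64% were lower and 6.44% higher by the same rule, which asks for a log2 ratio of at least 1 in size, a mean of at least 1 CPM and an interval that excludes equality. Scaling by total values in place of TMM turned the share of higher genes among all genes called from 45.7% to 61.4%. Under that scaling 41 of the 43 members were lower and 0 higher, with Bora and Ndc80 no longer past 2-fold. The median log2 ratio of the 43 was -2.10, or 4.28-fold lower, against -0.02 over all genes. The members' middle 50% lay between -2.62 and -1.91. Of markers of other cells, the 7 fibroblast genes summed to 126 CPM in conventional 3D, where 7 exceeded 1 CPM, and to 37.2 CPM in dynamic suspension, where 6 did. None was at 0 in either. The 5 endothelial markers summed to 10.7 CPM in conventional 3D, all of it Vwf, and to 1.85 CPM in dynamic suspension, where Vwf was 1.04 CPM, with Cdh5 and Tek at 0 in both. Cd68 was 12.4 and 13.2 CPM. The part of these cells in the difference was not tested.

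**Figure D2:**
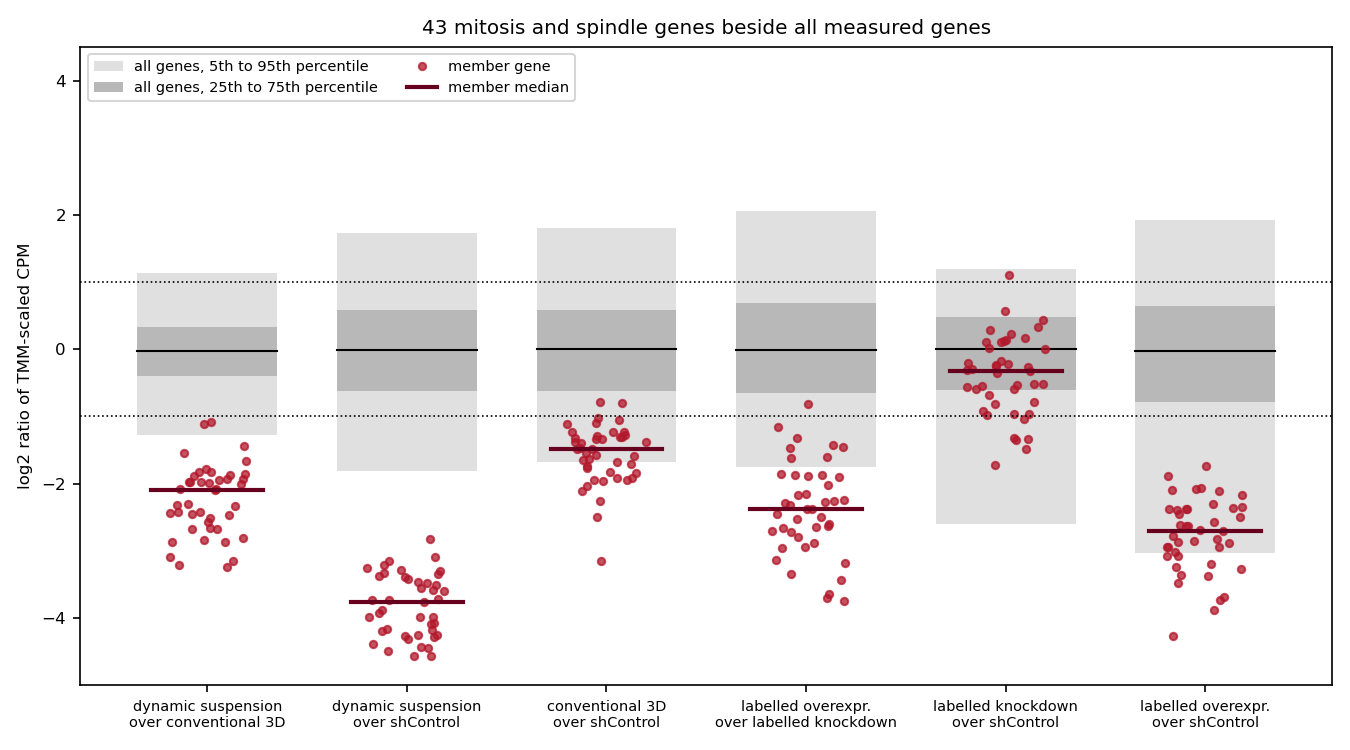
log2 ratios of TMM-scaled CPM (y) for the 43 genes (red points, dark bar at their median) in 6 comparisons of libraries (x), over grey bands that span the 25th to 75th and the 5th to 95th percentiles of all measured genes; dotted lines mark 2-fold. The members lie below the median of all genes in 5 comparisons, and spread around it between the library labelled knockdown and shControl.

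Among the cyclins and their kinase, the B-type cyclins differed most. Ccnb2 was 44.5 CPM in conventional 3D and 4.73 CPM in dynamic suspension, beside 95.6 CPM in shControl. Its levels in the lines labelled knockdown and overexpression were 80.8 and 15.5 CPM. Ccnb1 was 49.5 and 7.03 CPM in the culture pair and 137, 117 and 17.7 CPM in the others in the same order. The log2 ratios were -3.22 (interval -3.41 to -3.05) for Ccnb2 and -2.81 (-2.97 to -2.67) for Ccnb1, of whose 75-base words 18.9% also occur in other annotated genes, Ccnb1-ps first among them. Cdk1, the kinase these cyclins bind, was less far apart, at 71.8 against 18.8 CPM (log2 ratio -1.93, -2.03 to -1.84). Per kilobase, Ccnb1 stood at 0.806 of Cdk1 in conventional 3D and at 0.438 of it in dynamic suspension. Ccna2, the A-type cyclin of S phase and early mitosis, was 60.7 against 10.2 CPM, and Cdc25c, the phosphatase that activates Cdk1, 15.2 against 2.33 CPM. Foxm1, the transcription factor of late cell cycle genes, was 77.0 against 19.5 CPM (log2 ratio -1.98).

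In the group of Plk1, Aurka, Nek2, Pbk and the cofactor Bora, the 4 kinases were more than 5-fold lower and Bora was 2.12-fold lower. Plk1 (ENSMUSG00000030867, chr7:122159439-122169873 on GRCm38, plus strand), the Polo kinase, was 57.0 CPM in conventional 3D and 6.36 CPM in dynamic suspension (log2 ratio -3.16, -3.32 to -3.01), and 116, 156 and 11.9 CPM in shControl, the library labelled knockdown and the library labelled overexpression. Pbk (ENSMUSG00000022033, chr14:65805837-65817822, plus strand), a mitotic serine/threonine kinase, had the most negative ratio of the 43, at 29.5 against 3.08 CPM (log2 ratio -3.24, -3.49 to -3.04). Nek2, a centrosome kinase, was 33.7 against 3.92 CPM and Aurka, the spindle pole kinase, 43.3 against 7.99 CPM. Bora had the ratio nearest to 0, at 5.00 against 2.33 CPM (log2 ratio -1.08, -1.40 to -0.80). Its interval includes a 2-fold difference, as does that of Ndc80 below, so neither is clearly past that line. Tpx2, which activates Aurora A on microtubules, was 68.9 against 18.9 CPM (log2 ratio -1.86), less far apart than its partner Aurka (-2.43), and their intervals of -1.96 to -1.77 and -2.58 to -2.30 do not overlap.

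The 4 genes of the chromosomal passenger complex, which corrects faulty attachments, differed in their ratios. Aurkb, its kinase, was 42.3 against 7.40 CPM (log2 ratio -2.51) and Cdca8, which encodes borealin, 41.9 against 7.61 CPM (-2.45). Birc5, which encodes survivin, was 23.4 against 6.31 CPM (-1.88), and Incenp, the scaffold, 47.9 against 13.1 CPM (-1.87). The intervals of the former pair, the nearer ends of which are -2.37 and -2.31, do not reach those of the latter, which begin at -2.06 and -1.99. These intervals may be too narrow. With the estimated counts divided by 4, those of Cdca8 and Birc5 overlap, so the pairs are not clearly apart.

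As groups, the kinetochore and checkpoint genes had the medians nearest to 0. Their medians were -1.87 over 6 genes and -1.72 over 4 genes. The median was -3.09 over Plk1, Aurka, Nek2, Pbk and the cofactor Bora, and -2.84 over the 3 genes of anaphase and exit. Other kinase genes were placed in other groups, among them Aurkb (-2.51), Cdk1 (-1.93) and, in the checkpoint group, Bub1 (-1.98) and Ttk. The medians are thus not those of kinase genes as a class. Ndc80, Nuf2 and Spc25 encode subunits of 1 complex that grips microtubules. Ndc80 (ENSMUSG00000024056, chr17:71496100-71526857, minus strand) was 48.8 CPM in shControl, 24.7 in the library labelled knockdown, 5.45 in conventional 3D, 4.70 in the library labelled overexpression and 2.50 in dynamic suspension. Nuf2 was 67.5, 39.3, 18.8, 6.43 and 3.46 CPM in that order, so Ndc80 was closer to dynamic suspension in conventional 3D than Nuf2 was. Per kilobase, Ndc80 stood at 0.283 of Nuf2 in conventional 3D and at 0.616 to 0.714 of it in the other 4 libraries. Against Spc25 conventional 3D was not alone. Ndc80 stood at 0.185 of Spc25 there, at 0.177 in the library labelled overexpression and at 0.303 to 0.438 in the others. The level of Ndc80 in conventional 3D enters both its ratio in this comparison (-1.11, -1.42 to -0.84) and its ratio of conventional 3D to shControl (-3.15), the most negative of the 43 there.

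Of the other kinetochore genes, Cenpe, a kinesin that moves chromosomes to the spindle equator, was 13.3 against 2.67 CPM (log2 ratio -2.30) and Cenpf, a large kinetochore protein, 18.6 against 4.87 CPM (-1.93). Knl1, the platform for checkpoint proteins, was 8.93 against 3.03 CPM (-1.54). In the checkpoint itself, Bub1 was 25.2 against 6.36 CPM (-1.98), Bub1b, which encodes BubR1, 52.2 against 15.2 (-1.78), Mad2l1 39.6 against 12.5 (-1.66) and Ttk 5.32 against 1.94 (-1.44, -1.78 to -1.14).

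The genes of the spindle and of division of the cell lay between these extremes. Kif2c, a kinesin that shortens microtubules, was 22.9 against 3.10 CPM (log2 ratio -2.87), whereas the 6 other genes of the spindle group lay between -2.31 (Hmmr, a spindle pole protein) and -1.83 (Kif4, a chromosome-arm kinesin). Kif11, the kinesin that pushes the poles apart, was 30.8 against 7.78 CPM (-1.98). In the midzone and cytokinesis group the ratios ran from -2.68 (Kif20a) to -2.00 (Ect2, the activator of RhoA). Kif23 and Racgap1 make up centralspindlin, and were 23.6 against 4.22 and 95.8 against 15.1 CPM, with ratios of -2.47 and -2.66. Prc1, which bundles midzone microtubules, was 60.3 against 14.3 CPM, and Anln, which encodes the ring protein anillin, 51.2 against 9.37 CPM.

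At the step of chromatid separation, Cdc20, the activator of the anaphase-promoting complex, was 36.1 against 5.00 CPM (log2 ratio -2.84, -3.03 to -2.68). Ube2c, the complex's ubiquitin-conjugating enzyme, was 47.9 against 6.52 CPM (-2.87, -3.03 to -2.72). Espl1, which encodes separase, was less far apart, at 27.9 against 7.18 CPM (-1.95, -2.11 to -1.80). Mki67, whose protein coats mitotic chromosomes and is widely used as a proliferation marker, was 90.2 against 17.8 CPM (-2.34), and Top2a 168 against 39.1 CPM (-2.10).

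**Figure D3:**
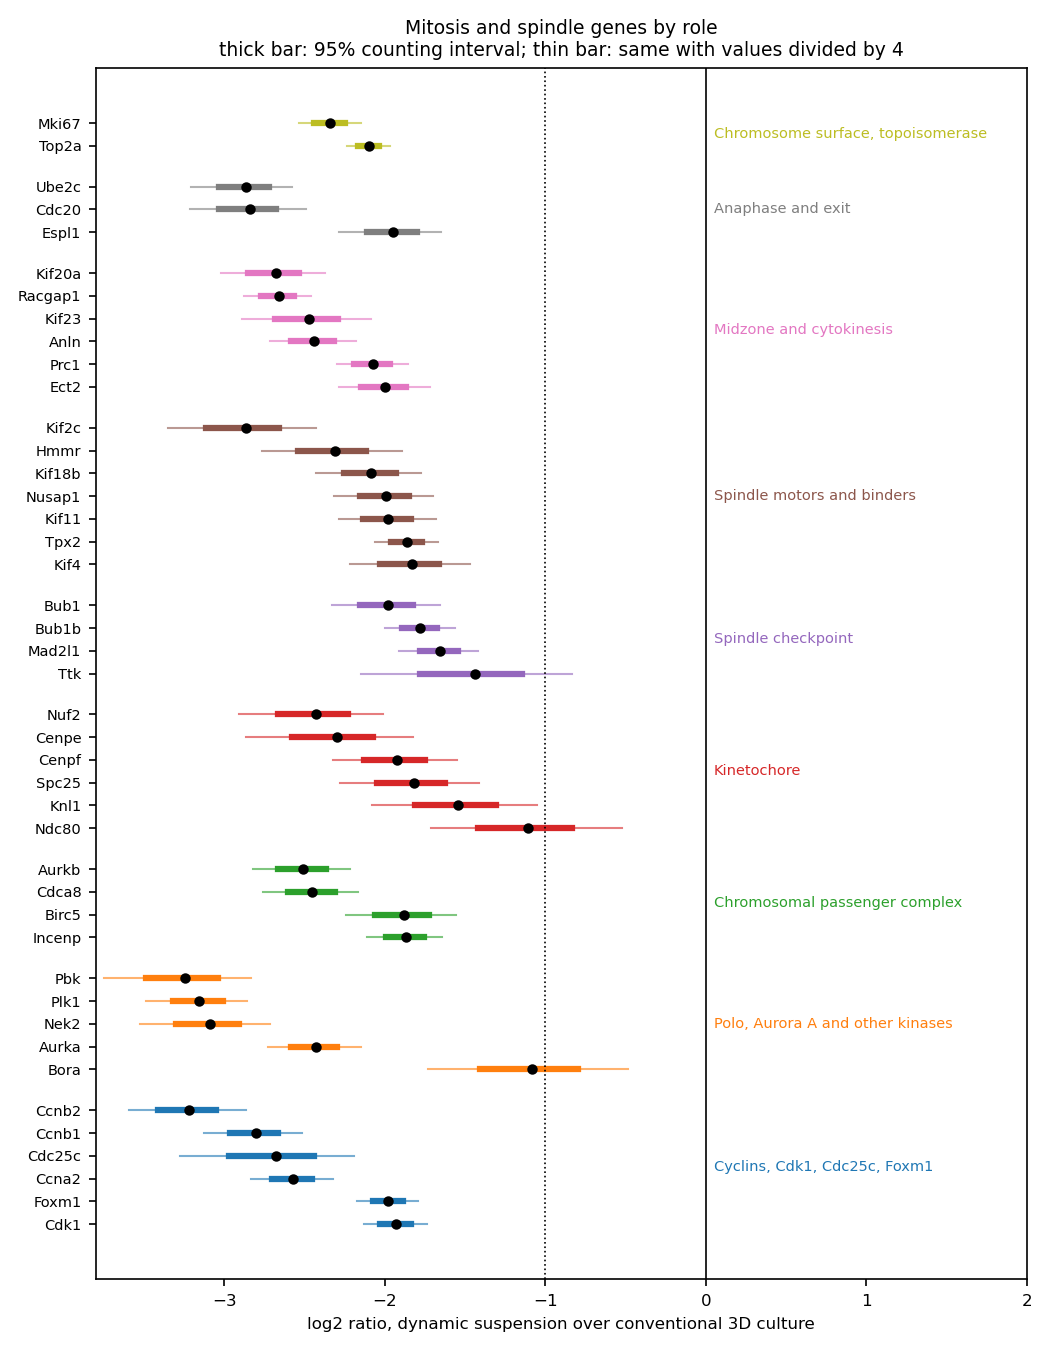
log2 ratio of dynamic suspension to conventional 3D (x) for each of the 43 genes (y), grouped by role; points are ratios, thick bars 95% counting intervals, thin bars the same intervals with the estimated counts divided by 4. All 43 points lie at or left of -1.08, from Bora to Pbk at -3.24.

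The other genes of mitosis, 140 genes in 7 lists, were divided by what they encode. Of 24 other motor and spindle genes, 21 were lower in dynamic suspension than in conventional 3D and 0 higher (median log2 ratio -2.10). The lowest was Aspm, a spindle pole protein, at 31.03 against 4.01 CPM (-2.94), and the highest Numa1, a spindle pole protein also present in interphase nuclei, at 187 against 237 CPM (0.34). Of 37 other kinetochore and centromere genes 23 were lower and 0 higher (median -1.22), from Cenpa, the centromeric histone, at 28.5 against 3.13 CPM (-3.17), to Cenpq at 4.83 against 5.40 CPM (0.16, -0.08 to 0.40). Of 15 genes of mitotic entry control 9 were lower and 0 higher (median -1.54), from Cdca3, a factor in the destruction of the Cdk1 inhibitor Wee1, at 52.6 against 7.63 CPM, to Arpp19, an inhibitor of the phosphatase that opposes Cdk1, at 67.4 against 85.1 CPM.

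In this comparison, the lists with machinery that also works outside mitosis had medians closer to 0. Over all genes 7.64% were lower and 6.44% higher. Of 16 core genes of the anaphase-promoting complex 0 were lower and 1 higher, Anapc16 at 14.2 against 29.2 CPM, with a median of -0.23. The lowest there was Ube2s, a ubiquitin-conjugating enzyme of the complex, at 174 against 91.7 CPM (-0.93). Of 18 genes of the gamma-tubulin ring and augmin 1 was lower, Haus4 at 18.02 against 5.89 CPM, and 0 higher (median -0.34), with Pcnt, a centrosome scaffold, highest at 0.09. Of 18 condensin and cohesin genes 4 were lower and 0 higher (median -0.41). The 4 were the condensin I genes Ncapd2, Ncapg and Ncaph and the cohesin protector gene Cdca5, which encodes sororin and was 16.5 against 2.91 CPM, while the cohesin release factor Pds5b was highest at 47.0 against 83.9 CPM. Of 12 genes of MuvB, its partners and the pocket proteins 3 were lower and 0 higher (median -0.38). Mybl2, which encodes B-Myb, was 9.81 against 2.91 CPM and Rbl2, which encodes the pocket protein p130, 75.7 against 105 CPM. The mean CPM of each gene over the 5 libraries was at least 1 throughout. In dynamic suspension against shControl, 11 of 18 condensin and cohesin genes were lower (median -1.475), and 9 of 18 gamma-tubulin and augmin genes (median -1.002). Over all genes 14.8% were lower there. The medians were -0.379 for the core of the anaphase-promoting complex and -0.495 for the MuvB list.

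Genes of DNA replication were lower too in dynamic suspension than in conventional 3D, with a median nearer to 0 than that of the mitotic genes. Of 39, 27 were lower and 0 higher (median -1.18), from the origin recognition gene Orc1 at 6.41 against 0.877 CPM (-2.80) to Gins2, a helicase subunit, at 7.48 against 14.9 CPM (0.99). The medians were -3.76 for the mitotic and -2.79 for the replication genes in dynamic suspension against shControl. They were -1.49 and -1.75 in conventional 3D against shControl, and -2.38 and -2.65 in the library labelled overexpression against the library labelled knockdown. In the library labelled overexpression against shControl they were -2.70 and -2.34. The difference between the groups of genes was not tested.

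**Figure D4:**
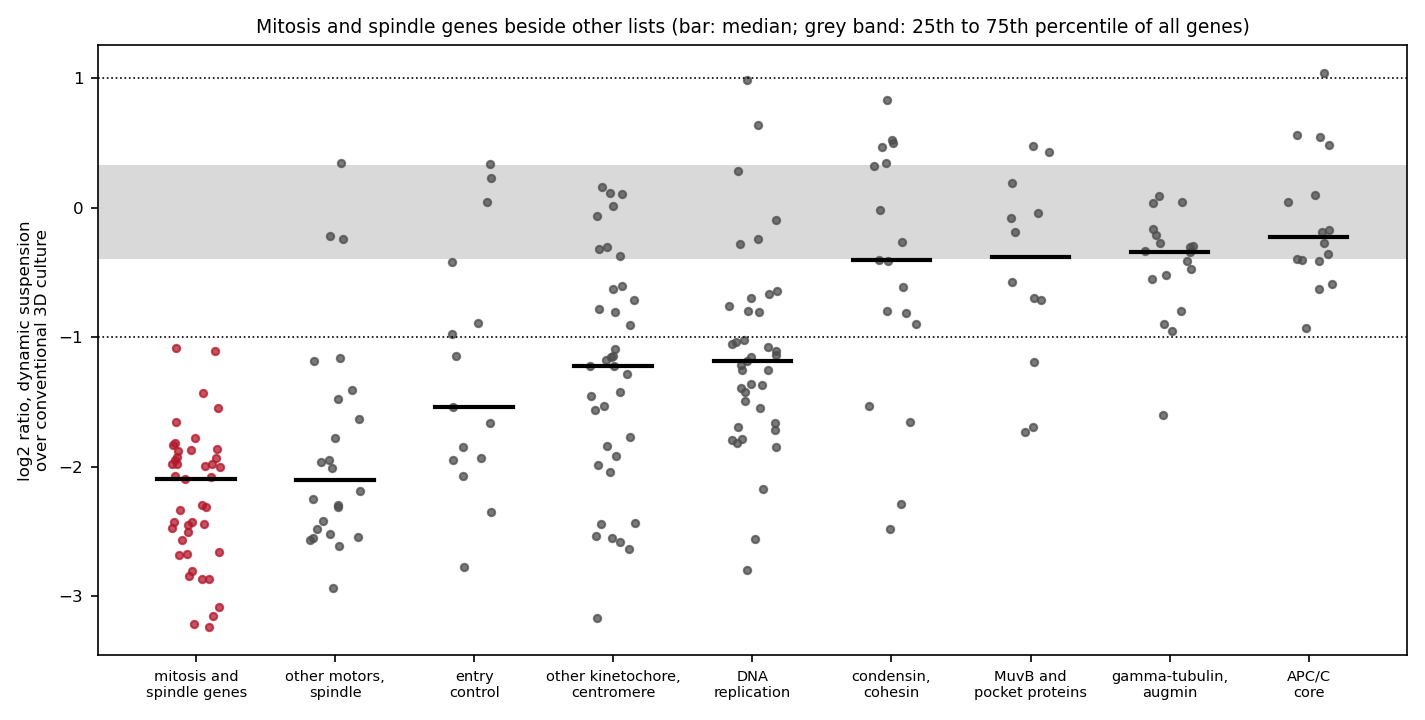
log2 ratio of dynamic suspension to conventional 3D (y) for the 43 mitosis and spindle genes (red) and for 8 other lists (grey points, 1 a gene; x), with a bar at each median and a grey band over the 25th to 75th percentile of all genes. Core genes of the anaphase-promoting complex (APC/C), gamma-tubulin and augmin genes sit near 0, and the other motor and spindle genes at the level of the 43.

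Other genes of mitosis with CHR letters near a start had lower ratios than those without, but the letters went with the list. Of the 117 with a matched promoter, 34 held CHR letters within 40 bases of a start, and their median log2 ratio of dynamic suspension to conventional 3D was -1.60. The median was -0.41 in the 83 without. Of the 34, 26 belonged to the kinetochore, motor, spindle and entry lists, where 66 genes had a matched promoter. Those lists had medians of -1.22, -2.10 and -1.54, further below 0 than the remaining lists of mitosis. No ratios were compared within a list, so the letters and the list cannot be told apart. Among the 43 genes themselves the medians were -2.08 in the 24 with the letters and -2.32 in the 10 without, so the letters did not separate those. These are medians over genes of the same libraries and no test was made.

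Relative to shControl, both cultures without a construct label had lower mitotic genes. In conventional 3D, 41 of 43 were lower beyond 2-fold and 0 higher, against 14.9% lower and 14.0% higher over all genes (median log2 ratio -1.49, or 2.81-fold lower). With scaling by total values the share of higher genes among all genes called went from 48.6% to 31.8%, and 43 of 43 members were lower. Markers of other cells were higher in conventional 3D. The fibroblast markers summed to 126 against 38.01 CPM, with 4 of 6 measured genes higher beyond 2-fold and 0 lower, Vwf was 10.7 against 3.09 CPM and Cd68 12.4 against 3.56 CPM. Their part in this difference was not tested. With TMM the 2 that did not pass were Nek2 at 33.7 against 58.3 CPM (-0.79) and Cdc25c at 15.2 against 26.6 CPM (-0.81). Plk1 was barely past 2-fold (-1.02), whereas Birc5 was 23.4 against 133 CPM (-2.51, -2.59 to -2.42), Hmmr 18.5 against 89.1 CPM (-2.26) and Bub1 25.2 against 109 CPM (-2.11).

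In dynamic suspension 43 of 43 were lower than in shControl, and 0 higher, against 14.8% lower and 13.8% higher over all genes, with a median log2 ratio of -3.76, or 13.6-fold. The ratios ran from -4.58 for Hmmr, at 3.69 against 89.1 CPM, to -2.82 for Bora, at 2.33 against 16.8 CPM. Pbk (-4.56), Ccna2 (-4.49), Ube2c (-4.44) and Kif23 (-4.44) followed Hmmr. In this comparison Cd68 was 13.2 against 3.56 CPM and Vwf 1.04 against 3.09 CPM, and their part was not tested. These 3 comparisons share libraries, so their ratios are not independent of each other. Hif1a was 542 CPM in conventional 3D and 391 CPM in dynamic suspension. Cdkn1a, the p53-induced inhibitor of cyclin-dependent kinases, was 341 and 434 CPM there and 424 CPM in shControl, so it did not follow the order of the mitotic genes.

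Between the lines with a HIF-1α label, whose columns are of the same kind, 42 of 43 genes were lower in the library labelled overexpression than in the library labelled knockdown and 0 were higher. Over all genes 14.9% were lower and 17.7% higher. The median log2 ratio was -2.38, or 5.19-fold lower. Kif20a had the most negative ratio, at 5.18 against 70.1 CPM (-3.75, -4.09 to -3.44), followed by Plk1 at 11.9 against 156 CPM (-3.71), Foxm1 at 24.0 against 300.3 CPM (-3.64) and Cdc20 at 6.79 against 74.2 CPM (-3.44). The genes nearest to 0 were Cenpe at 11.4 against 20.2 CPM (-0.82, -1.09 to -0.55), which alone did not pass 2-fold, and Cenpf at 8.99 against 20.1 CPM (-1.16, -1.45 to -0.87). B-Myb's gene Mybl2 was 5.48 against 80.5 CPM (-3.87). Trp53, the gene of p53, was 79.0 against 283 CPM in these libraries and Cdkn1a 586 against 489 CPM. The fibroblast markers summed to 15.8 CPM in the former and 35.6 CPM in the latter, with Dcn and Lum at 0 in both. Cd68 was 8.39 CPM in the former and 0.787 CPM in the latter (log2 ratio 3.34), and Vwf 4.88 and 2.17 CPM. The part of such cells was not tested.

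The library labelled overexpression was also below shControl for all 43 genes, and above it for 0, against 20.1% lower and 16.1% higher over all genes, with a median log2 ratio of -2.70. Here the kinds of column differ. The ratios ran from -4.27 for Kif20a to -1.74 for Bora, at 5.00 against 16.8 CPM. Ccna2 was 15.6 against 230.1 CPM (-3.88), Cdc20 6.79 against 90.9 CPM (-3.73) and Kif23 7.15 against 92.4 CPM (-3.68), while Anln was 33.5 against 124 CPM (-1.89). Top2a was 122 against 522 CPM (-2.10).

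The library labelled knockdown was near shControl as a whole, but the genes went different ways. Of 43, 6 were lower beyond 2-fold, against 15.7% of all genes, and 1 was higher, against 8.05%. The members' shares, 14.0% and 2.33%, are close to or under those of all genes, and their median was -0.33. With TMM factors taken from protein-coding genes whose exons overlap no other gene, 10 were lower and 0 higher. The lower genes were Cenpf at 20.1 against 66.6 CPM (log2 ratio -1.73, -1.90 to -1.56), Bub1 at 38.6 against 109 (-1.49), Cenpe at 20.2 against 51.6 (-1.35), Mki67 at 112 against 283 (-1.34), Hmmr at 35.8 against 89.1 (-1.32) and Kif23 at 44.8 against 92.4 (-1.04). The higher gene was Espl1 (ENSMUSG00000058290, chr15:102296266-102324357, plus strand), at 156 against 72.6 CPM (1.10, 1.03 to 1.18). Foxm1 was 300.3 against 203 CPM (0.56, 0.52 to 0.61), Plk1 156 against 116 (0.44) and Aurkb 171 against 136 (0.33), all above shControl without passing 2-fold.

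The ratio of a gene in the library labelled knockdown to shControl varied with the base composition of its transcript. The GC content of the longest annotated transcript ran from 37.7% in Knl1 to 56.1% in Espl1, with a median of 46.3%. The 22 genes at or above that median had a median log2 ratio to shControl of 0.01, and the 21 below it -0.68. Spearman's rho between GC content and ratio was 0.68 over the 43 genes, which are not independent replicates and share the same libraries. Over all 12848 measured genes it was 0.40, and over the 140 other genes of mitosis 0.62. In the comparison of the library labelled overexpression with the library labelled knockdown, whose columns are of the same kind, rho was -0.68 over the 43 genes, with medians of -2.69 at or above and -1.89 below the median GC content. It was -0.10 for the library labelled overexpression against shControl, 0.53 for conventional 3D against shControl, 0.02 for dynamic suspension against shControl and -0.37 for dynamic suspension against conventional 3D. The part of base composition in these ratios was not tested.

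**Figure D5:**
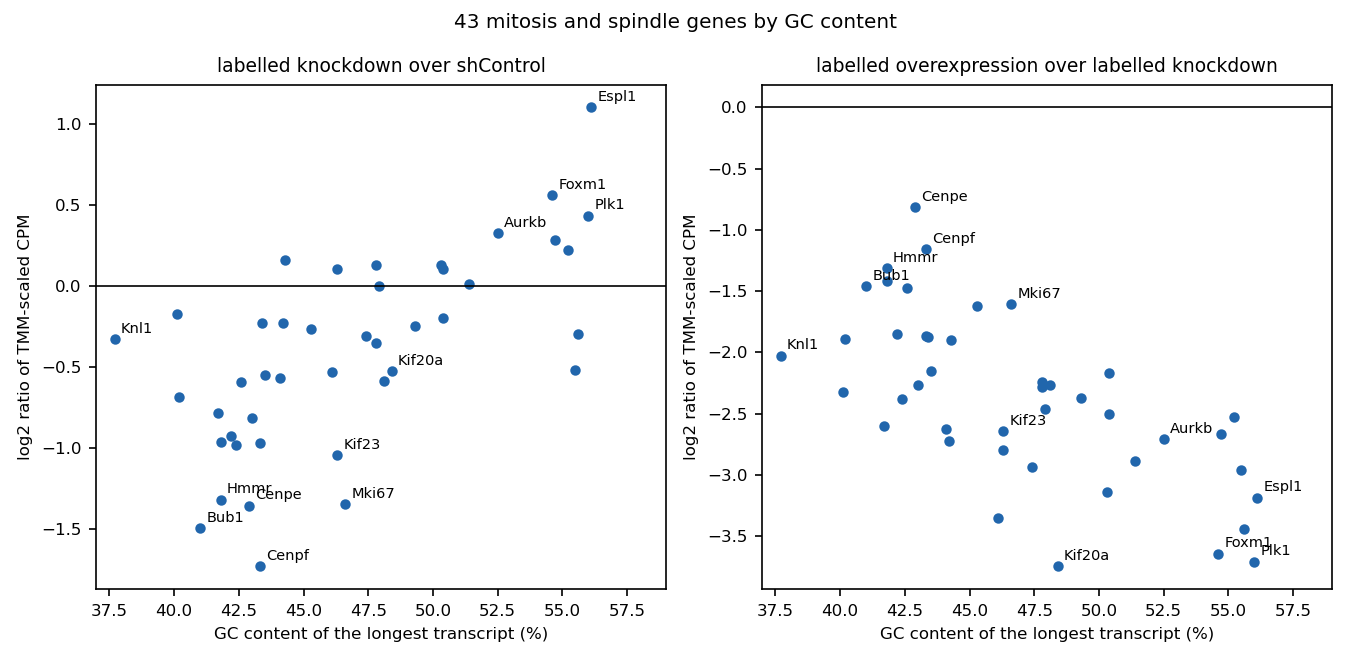
log2 ratio of TMM-scaled CPM (y) against the GC content of the longest transcript in % (x) for the 43 genes, 1 point a gene, for the library labelled knockdown over shControl (left) and the library labelled overexpression over the library labelled knockdown (right). GC-rich Espl1, Foxm1 and Plk1 lie at the top on the left and near the bottom on the right, and Cenpf, Cenpe, Bub1 and Hmmr at the opposite ends.

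The levels of partner genes relative to each other also varied between libraries, on the scale of CPM per kilobase. Bub1 stood at 0.783 of Bub1b in shControl, and at 0.320 of it in the library labelled knockdown. It was 0.522 of Bub1b in the library labelled overexpression, 0.474 in conventional 3D and 0.411 in dynamic suspension. Mki67 stood at 0.224 of Top2a (labelled knockdown) and 0.269 (labelled overexpression) in the plain-count columns, and at 0.407 to 0.486 in the estimated-count columns. For this pair the 2 kinds of column do not overlap, so the kind of column and the group cannot be told apart. Kif23 likewise stood at 0.155 and 0.171 of Racgap1 in the plain-count columns and at 0.221 to 0.343 in the others. Ccnb1 and Ccnb2 were more alike, with ratios of 0.404 to 0.540 over the 5 libraries.

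Some of these genes share exon bases with a neighbour. The exons of 13 of the 43 overlap another annotated gene on either strand, for example Kif20a with Cdc23, Ccna2 with Exosc9 and Ube2c with Tnnc2 on the opposite strand. The counting program is not given in the sources used here, so reads of such partners may not be separated, and the values of the 13 genes are less certain. The 30 genes with exons of their own were lower in dynamic suspension than in conventional 3D in 30 of 30 cases (median -1.99).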

How the data were processed

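RNA of 5 B16F10 libraries, 1 a group, was measured by poly(A)-selected, strand-specific sequencing with paired 150 bp reads, per the labels' protocols. The tools HISAT2, StringTie and cutadapt and the builds mm10 and GRCm38.p6 are named, without roles, per the submitters' processing notes. No source used here names the counting program. By their pattern, the deposited values of 2 columns were taken as counts and those of 3 columns as estimated counts, already whole numbers. Columns left unassigned numbered 0. All 54100 identifiers matched GENCODE M21 (GRCm38).

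Libraries were scaled by TMM (edgeR 4.0.16, R 4.3.3), log2 ratios used a prior count of 2, and intervals are exact conditional binomial (Clopper-Pearson) for ratios and exact Poisson for levels, at 95%. They cover counting error only, as does the limit of 3 counts for a count of 0. A gene was called beyond 2-fold at a log2 ratio of at least 1 in size, a mean of 1 CPM or more in the compared pair and an interval that excludes equality. Lists count genes whose 5-library mean reached 1 CPM. With 1 library a group no test was run. The scripts were tested on simulated data. Named are all 43 members, the lowest and highest gene of each other list whose mean reached 10 CPM, by the ratio of dynamic suspension to conventional 3D, and Hif1a, Trp53 and Cdkn1a; other genes were picked after their values were seen. Members and lists were chosen with earlier results of these data known. Alternatives were other scalings, priors, filters, intervals, fold thresholds and gene lengths.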

Additional observations from a re-analysis of the deposited data

How the results depend on the processing

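Over the alternatives run (3 other scalings, 2 other priors, 2 other filters, intervals from values divided by 4, genes of own exons, a 1.5-fold threshold, and another gene length), 160 of 173 recomputed values stayed within 1.5 times the count or within the counting interval of the median gene, and 0 changed sign. The other 13 include the levels per kb in the 5 libraries, which were set down as moved without that rule. Some of the 160 could hardly move. Counts of 0 that stayed 0 are among them, and dropping the filter on low values changed nothing because all 43 genes passed it. Scaling by total values moved the median of all genes by 0.187 and -0.252 (log2) in dynamic suspension against conventional 3D and in conventional 3D against shControl, and the members' medians there to -1.91 and -1.74. In dynamic suspension against conventional 3D the median was -2.30 among the 41 genes whose mean reached 10 CPM and -1.99 among the 30 genes with exons of their own. The 30 had a median of -1.62 in conventional 3D against shControl. In the library labelled knockdown against shControl, 10 genes were lower and 0 higher with TMM over protein-coding genes of own exons, which moved the median of all genes by -0.103, and 15 were lower at a 1.5-fold threshold. Taking the longest transcript as gene length raised the members' median level per kb in all 5 libraries, for example from 19.6 to 27.4 in shControl. No paired analysis was possible because each group has 1 library, and for the same reason no library could be left out.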
